A study of Mus musculus with 16 samples.

Results

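The genes described here encode the contractile apparatus of heart and skeletal muscle and its close partners. They are 37 of the 12393 genes with a probe set on the array, chosen by name as 10 cardiac genes, 13 genes shared by heart and skeletal muscle, and 14 skeletal genes. All 37 had a probe set annotated to that gene alone, 54 probe sets in all, and each gene was taken at the probe set with the highest mean log2 intensity over the 16 tumors. The tumors came from p53R172H∆g/+ K-rasLA1/+ mice, which carry 1 mutant p53 allele and 1 mutant K-ras allele and develop lung adenocarcinomas that spread. There were 7 primary lung tumors, 1 from each of mice 1 to 7, and 9 metastases from mice 1 to 4, so every tumor carries the same genotype and no tumor from another genotype serves as a control. Mouse 1 gave a liver metastasis, a subcutaneous metastasis of the body wall and an inguinal metastasis, which the study also placed in the body wall. Mouse 2 gave a liver metastasis, and mouse 4 a mediastinal lymph node metastasis and a nodule of the parietal pleura. Mouse 3 gave the only heart metastasis, a mediastinal lymph node metastasis and a subcutaneous metastasis, here called the body wall metastasis of mouse 3. Ages are not given in the sources used here. Adjacent tissue was dissected away before RNA was extracted, and 1 array was hybridized per tumor. No array of normal heart or normal muscle was analysed here, so how each probe set responds to RNA of those tissues was not tested.

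The sarcomere is the repeating unit of striated muscle, in which myosin filaments pull on actin filaments and titin spans the gap between them. Troponin on the actin filament opens the myosin sites when calcium rises, and phospholamban and the SERCA pumps govern how calcium returns to its store. Heart and fast skeletal muscle build these parts from partly different genes, so only some of their transcripts can be told apart by gene. In bulk RNA, fewer muscle cells and less muscle RNA per cell cannot be told apart.

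Cardiac and shared genes stood out in the heart metastasis, and fast skeletal genes in the inguinal metastasis of mouse 1 and the body wall metastasis of mouse 3. The heart metastasis lay above all 12 liver, lymph node, pleural and primary tumors for 6 of 10 cardiac, 10 of 13 shared and 3 of 14 skeletal genes, against 11.7% of all 22626 probe sets. The inguinal metastasis did so for 0 cardiac, 2 shared and 9 skeletal genes, against 15.8% of all probe sets. For the body wall metastasis of mouse 3 the counts were 1 cardiac, 5 shared and 8 skeletal genes, against 8.28%. The subcutaneous metastasis of mouse 1 exceeded the 12 tumors for 3 of the 37 genes, namely Tnni3, Acta1 and Tnnt1, against 6.73%. Thus 1 of the 3 body wall tumors showed little of the skeletal pattern of the others. Among the primary tumors, 13 of the 37 genes stayed under the 25th percentile of all intensities (24.3) in all 7 of them. The same held for 4058 of all 22626 probe sets.

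**Figure D1:**
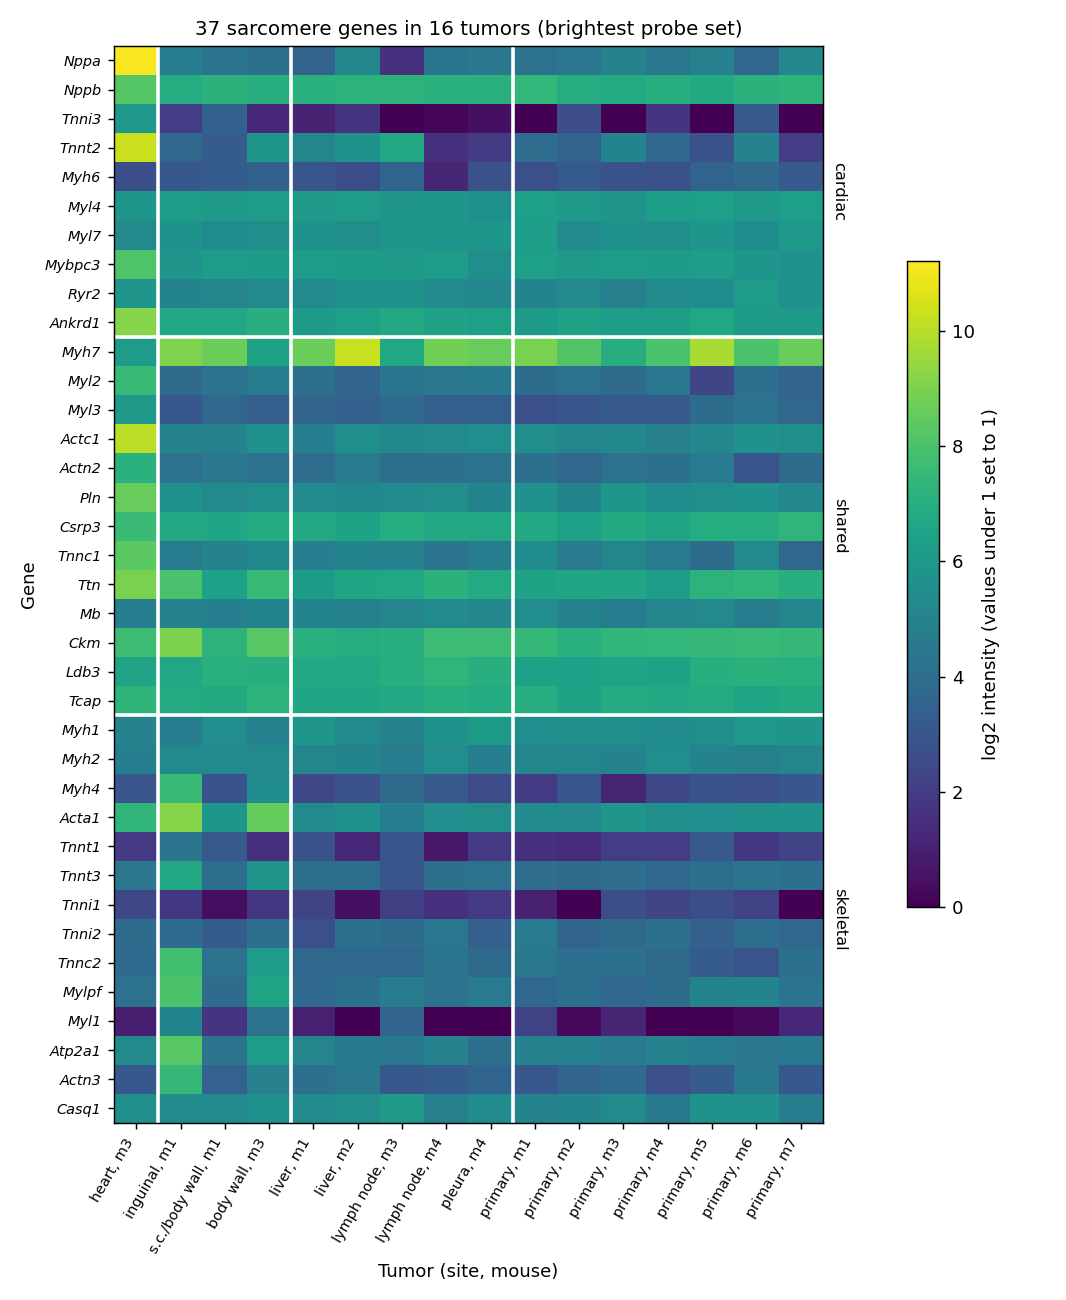
Log2 intensity of the 37 genes (rows, grouped as cardiac, shared and skeletal) in the 16 tumors (columns, with m for mouse), with white lines between the heart metastasis, the 3 body wall metastases, the 5 other metastases and the 7 primary tumors. The heart column is bright for Nppa, Tnnt2 and Actc1, and the inguinal and mouse 3 body wall columns are bright for Acta1, Mylpf and Tnnc2.

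The promoters of 6 genes are shown because these genes carried the largest differences: Nppa, Tnni3 and Actc1 among the genes called in the heart metastasis, and Acta1, Myh4 and Tnnc2 among the skeletal genes in the body wall metastases. Each line gives the 150 bases before the annotated transcription start, 5′ to 3′, from RefSeq on GRCm38.p6, and capitals mark matches on either strand to the E-box, the M-CAT element, a GATA site, the CArG box, the MEF2 site or the TATA box.
Nppa (chr4:148000572-148000721, plus strand): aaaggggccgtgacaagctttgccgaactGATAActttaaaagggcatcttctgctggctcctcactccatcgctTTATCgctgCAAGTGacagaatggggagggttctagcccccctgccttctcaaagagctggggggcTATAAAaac
Tnni3 (chr7:4522529-4522678, minus strand): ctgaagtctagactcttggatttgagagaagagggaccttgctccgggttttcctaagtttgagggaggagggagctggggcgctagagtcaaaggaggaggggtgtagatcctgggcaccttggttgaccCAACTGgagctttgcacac
Actc1 (chr2:114052876-114053025, minus strand): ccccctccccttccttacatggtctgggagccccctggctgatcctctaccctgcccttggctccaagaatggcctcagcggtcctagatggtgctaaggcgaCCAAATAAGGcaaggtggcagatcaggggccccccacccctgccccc
Acta1 (chr8:123894776-123894925, minus strand): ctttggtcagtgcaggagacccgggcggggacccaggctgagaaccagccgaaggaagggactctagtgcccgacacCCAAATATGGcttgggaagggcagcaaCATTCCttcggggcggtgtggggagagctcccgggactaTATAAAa
Myh4 (chr11:67237662-67237811, plus strand): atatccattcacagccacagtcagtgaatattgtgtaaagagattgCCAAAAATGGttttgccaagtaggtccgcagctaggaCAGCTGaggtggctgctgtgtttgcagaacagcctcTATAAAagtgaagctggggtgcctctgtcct
Tnnc2 (chr2:164779735-164779884, minus strand): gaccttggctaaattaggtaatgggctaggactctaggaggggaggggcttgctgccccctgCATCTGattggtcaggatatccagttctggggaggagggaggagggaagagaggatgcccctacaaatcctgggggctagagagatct

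The CArG box, the site bound by serum response factor, matched in both actin genes and in Myh4 (bases −47 to −38 in Actc1, −73 to −64 in Acta1 and −104 to −95 in Myh4, counted back from the start). Of the 32851 windows of 250 upstream bases in the table, 1.47% held a CArG box, as did 7 of the 41 windows of the 33 genes of the set with an entry. The M-CAT element (CATTCC), found in Acta1 at −46 to −41, occurred in 12.6% of all windows and in 12 of the 41. Nppa held GATAA at −121 to −117 and its reverse complement at −75 to −71, a motif present in 22.6% of all windows and in 11 of the 41. An E-box (CANNTG), the site of the myogenic factors, lay in 66.2% of all windows and 35 of the 41. The MEF2 site had no match in the printed stretches and was in 2.92% of all windows and 4 of the 41, and the TATA box, searched as TATAAA, was in 12.4% of all windows and 9 of the 41. These matches are letters in a window, and binding was not measured.

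The first question was how the heart metastasis differed from the 5 metastases in liver, lymph node and pleura. In limma with the mouse as a block, 9 of the 37 genes were higher in the heart metastasis at an adjusted p of 0.05 and 0 were lower, against 0.0928% of all probe sets called higher. They were Nppa, Tnni3 and Ankrd1 of the 10 cardiac genes and Actc1, Actn2, Myl2, Myl3, Pln and Tnnc1 of the 13 shared genes, with 0 of the 14 skeletal genes. The median log2 difference was 1.55 over the cardiac genes, 2.21 over the shared genes and 0.03 over the skeletal genes, beside 0.00 over all genes. At an unadjusted p under 0.05, 14 of the 37 genes were higher, against 5.49% of all probe sets. Only 1 heart metastasis was profiled, so its site cannot be told apart from this one tumor, and the fit assumes that it varies as the other tumors do. When a metastasis or a mouse was left out, fewer of all probe sets were called higher than in the full fit, in every case. The count among the 37 genes also depended on the comparison tumors. It was 3 without the lymph node metastasis of mouse 3, 4 without the pleural metastasis or the subcutaneous metastasis of mouse 1, and 7 without the liver metastasis of mouse 2. It was 5 without the lymph node metastasis of mouse 4, the body wall metastasis of mouse 3, or the liver or inguinal metastasis of mouse 1, and 0 without all tumors of mouse 1 or of mouse 4.

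**Figure D2:**
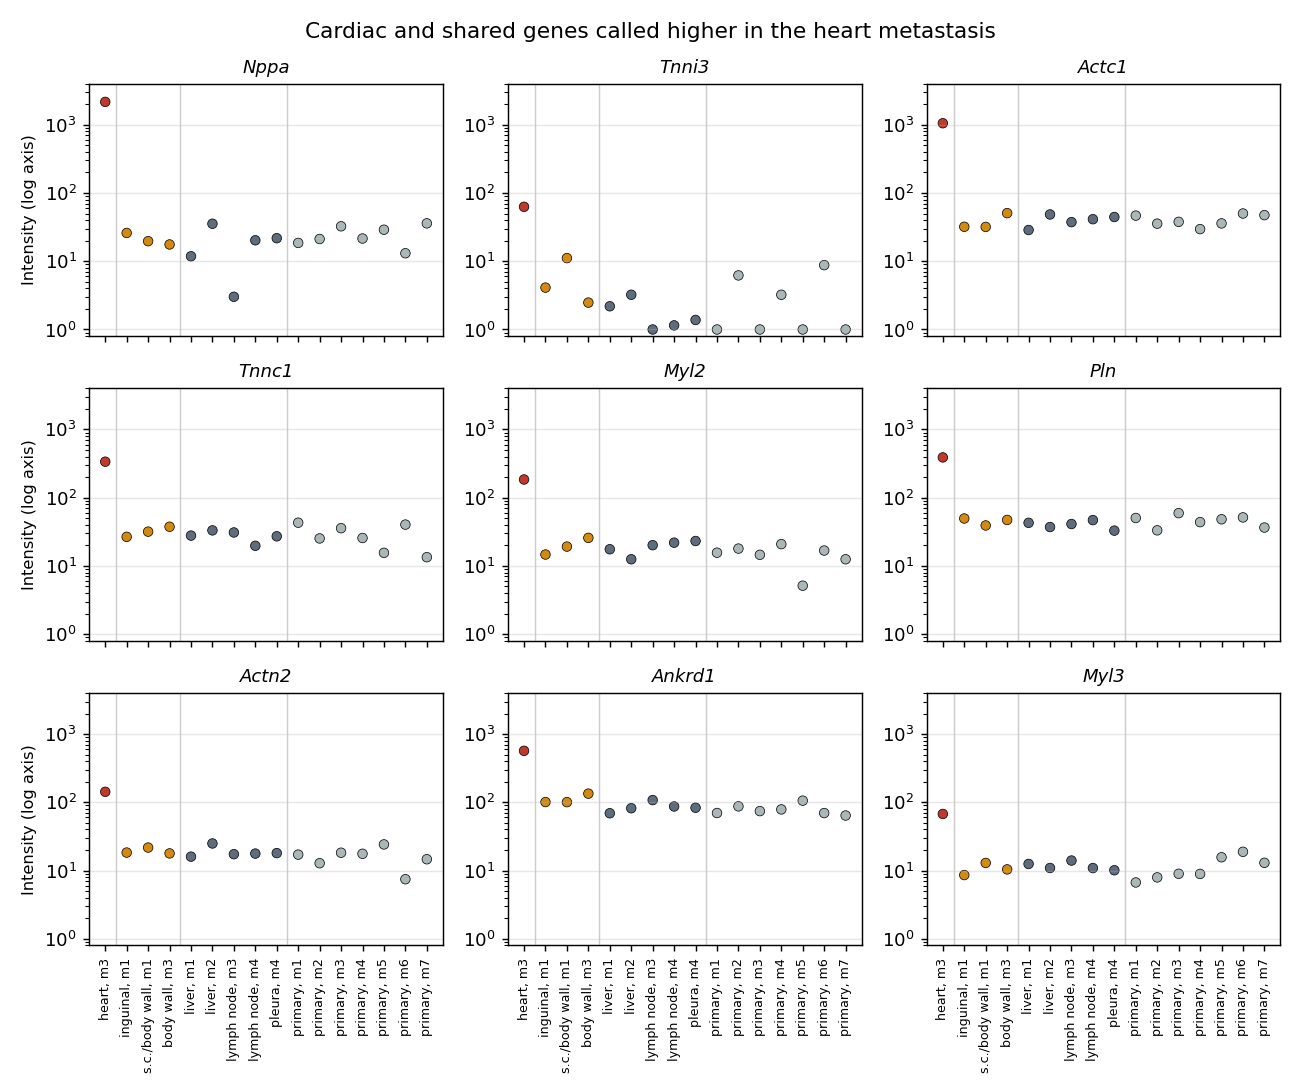
Intensity (log axis, values under 1 drawn at 1) of the 9 genes called higher in the heart metastasis, in each of the 16 tumors, with red for heart, orange for body wall, dark grey for the other metastases and light grey for primary tumors. The genes were chosen by that call, and in each panel the heart metastasis lies above the other 15 tumors, by 3.58 times for Myl3 and 60.2 times for Nppa relative to the highest of them.

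Among the peptide hormones, Nppa, which encodes atrial natriuretic peptide, read 2161 in the heart metastasis. It read 26.0, 19.7 and 17.6 in the inguinal, subcutaneous and mouse 3 body wall metastases, 11.8 and 35.4 in the liver metastases of mice 1 and 2, 3.02 and 20.3 in the lymph node metastases of mice 3 and 4, and 21.8 in the pleural metastasis. The 7 primary tumors lay between 13.1 and 35.9 with a median of 21.5. No other tumor came near the heart metastasis, which was 60.2 times the highest of them. The log2 difference from the other metastases was 8.12 ± 1.00 (SE, adjusted p = 0.0375), and it ranged from 6.30 to 8.34 over the other settings. The lymph node metastasis of mouse 3, from the same animal, read lowest of all tumors for Nppa. Without that tumor the difference was 6.66, and without the mouse block it was 7.26. Nppb, which encodes brain natriuretic peptide, read 306 in the heart metastasis and 122, 145 and 132 in the inguinal, subcutaneous and mouse 3 body wall metastases, 141 and 150.2 in liver, 150 and 143 in lymph node, 138 in pleura and 113 to 172 (median 133) in the primary tumors. It was the highest of the 16, but its log2 difference of 1.11 ± 0.24 did not pass (adjusted p = 0.176).

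The troponins bind calcium and hold the thin filament. Tnnc1, the troponin C of heart and slow muscle, read 336 in the heart metastasis and 26.7, 31.8 and 37.5 in the inguinal, subcutaneous and mouse 3 body wall metastases. It read 27.8 and 33.2 in the liver metastases of mice 1 and 2, 30.9 and 19.7 in the lymph node metastases of mice 3 and 4, 27.2 in the pleura, and 13.4 to 43.0 (median 25.7) in the primary tumors. The heart reading did not overlap the rest, and the log2 difference was 3.33 ± 0.34 (adjusted p = 0.0162). Tnni3, the cardiac troponin I, read 62.8 in the heart metastasis and at most 11.1 elsewhere, with a log2 difference of 6.34 ± 0.82 (adjusted p = 0.0458). Because the other readings lie at or near the floor of 1, that difference shrank to 1.37 with a floor at the 25th percentile. The call held in 5 of 19 other settings and was lost without the mouse block. The 5 include that floor, under which the other tumors had no spread left. Tnnt2, the cardiac troponin T, read 1269 in the heart metastasis, 12.8, 9.71 and 59.6 in the inguinal, subcutaneous and mouse 3 body wall metastases, 34.1 and 51.6 in the liver metastases of mice 1 and 2, 102 and 3.07 in the lymph node metastases of mice 3 and 4, 3.92 in the pleura, and 4.11 to 33.0 (median 13.7) in the primary tumors. Tnnt2 was 12.5 times the highest other tumor in the heart metastasis. Outside the heart, the highest reading was in the lymph node metastasis of mouse 3, the animal of the heart metastasis. The Tnnt2 log2 difference of 3.98 ± 1.16 did not pass (adjusted p = 0.271). That difference ranged from 3.42 to 6.10 over the other settings. A second probe set gave 1227 in the heart metastasis and at most 74.6 elsewhere, with a log2 difference of 4.12 ± 0.85 (adjusted p = 0.172).

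Of the actin and Z-disc genes, Actc1, the cardiac alpha-actin, read 1052 in the heart metastasis. It read 32.0, 31.8 and 50.7 in the inguinal, subcutaneous and mouse 3 body wall metastases, 28.7 and 48.5 in the liver metastases of mice 1 and 2, 37.4 and 41.3 in the lymph node metastases of mice 3 and 4, 44.5 in the pleura, and 29.6 to 50.1 (median 37.8) in the primary tumors. All 15 other tumors thus lay in a narrow band, and the log2 difference from the other metastases was 4.63 ± 0.39 (adjusted p = 0.0064). Actn2, the alpha-actinin of the Z-disc in heart and skeletal muscle, read 143 in the heart metastasis and 18.4, 21.7 and 17.9 in the inguinal, subcutaneous and mouse 3 body wall metastases, 16 and 25 in liver, 17.4 and 17.7 in lymph node, 18.0 in pleura and 7.47 to 24.2 (median 17.1) in the primary tumors. The heart metastasis was 5.71 times the highest other tumor (log2 difference 2.96 ± 0.33, adjusted p = 0.0223). Csrp3, the muscle LIM protein, read 198 in the heart metastasis and 109.6, 97.5 and 119 in the inguinal, subcutaneous and mouse 3 body wall metastases, 108 and 91.1 in liver, 123 and 108 in lymph node, 104 in pleura and 81.9 to 161 (median 112) in the primary tumors. It was the highest tumor by 1.23 times, with a log2 difference of 0.68 ± 0.18 (adjusted p = 0.238). Tcap, which caps titin at the Z-disc, read 154 in the heart metastasis and 114, 111 and 152 in the inguinal, subcutaneous and mouse 3 body wall metastases, 97.6 and 99.8 in liver, 109.6 and 128 in lymph node, 119 in pleura and 91.6 to 128 (median 112) in the primary tumors. The heart and mouse 3 body wall metastases thus lay just above the rest. Ldb3, another Z-disc gene, read 92.9 in the heart metastasis and 104, 138 and 133 in the inguinal, subcutaneous and mouse 3 body wall metastases, 107 and 109 in liver, 133 and 160.0 in lymph node, 134 in pleura and 83.7 to 144 (median 92.1) in the primary tumors, with the heart metastasis inside that range. A dimmer Ldb3 probe set read 21.8 in the heart metastasis and at most 10.3 elsewhere (log2 difference 3.75 ± 1.09, adjusted p = 0.272).

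Ankrd1, an ankyrin repeat protein that binds titin and enters the nucleus under stretch, read 569 in the heart metastasis and 101, 101 and 134 in the inguinal, subcutaneous and mouse 3 body wall metastases. It read 69.2 and 82.0 in the liver metastases of mice 1 and 2, 108 and 86.9 in the lymph node metastases of mice 3 and 4, 83.3 in the pleura, and 64.1 to 106 (median 74.4) in the primary tumors. Its log2 difference was 2.59 ± 0.22 (adjusted p = 0.0064), and a second probe set, at 749.7 in the heart metastasis and at most 139.7 elsewhere, gave 3.08 ± 0.46 (adjusted p = 0.0852). Pln, phospholamban, which restrains the calcium pump, read 389 in the heart metastasis and 49.5, 39.2 and 47.2 in the inguinal, subcutaneous and mouse 3 body wall metastases, 42.8 and 37.1 in liver, 41.1 and 46.9 in lymph node, 32.9 in pleura and 33.2 to 59.3 (median 48.2) in the primary tumors. The groups did not overlap (log2 difference 3.07 ± 0.29, adjusted p = 0.0118). The 2 other probe sets of Pln read 119 and 85.8 in the heart metastasis against at most 31.4 and 10.2 elsewhere.

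Myosin genes divided. Myl2, the regulatory light chain of the ventricle and slow muscle, read 185 in the heart metastasis and 14.7, 19.2 and 25.7 in the inguinal, subcutaneous and mouse 3 body wall metastases, 17.6 and 12.5 in liver, 20.1 and 21.9 in lymph node, 23.2 in pleura and 5.13 to 20.9 (median 15.6) in the primary tumors. The heart metastasis was 7.17 times the highest of the rest (log2 difference 3.29 ± 0.34, adjusted p = 0.0162). Myl3, the matching essential light chain, read 67.6 against 6.70 to 18.9 (2.38 ± 0.31, adjusted p = 0.0444), although a dimmer probe set read 27.6 there and 37.9 in the lymph node metastasis of mouse 3. The call held in 6 of 19 other settings and was lost under quantile normalization, median centring and the variance trend. Mybpc3, the cardiac myosin binding protein C, read 275 in the heart metastasis and 58.0, 70.9 and 68.0 in the inguinal, subcutaneous and mouse 3 body wall metastases, 71.2 and 69.6 in liver, 65.3 and 73.2 in lymph node, 47.0 in pleura and 51.4 to 82.5 (median 69.1) in the primary tumors. It was 3.33 times the highest other tumor, and its log2 difference of 2.00 ± 0.29 had an adjusted p of 0.0779. Myh6, the main myosin heavy chain of the adult mouse heart, read 6.55 in the heart metastasis and 2.32 to 14.1 in the others, and its second probe set read 6.81 there, so both lay within the range of the other tumors. The atrial light chains Myl4 and Myl7 read 61.1 and 38.8 in the heart metastasis, against 49.3 to 80.3 and 42.7 to 77.7 in the others. For Myl7 the heart metastasis was the lowest tumor.

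Myh7, the slow and fetal cardiac myosin heavy chain, followed another order. It read 70.5 in the heart metastasis, 88.4 in the body wall and 102 in the lymph node metastasis of the same mouse, and 127 in that mouse's primary tumor. It read 519, 418 and 408 in the inguinal, subcutaneous and liver metastases of mouse 1, 1231 in the liver metastasis of mouse 2, 445 in the lymph node metastasis of mouse 4 and 389.6 in its pleural nodule. The primary tumors ranged from 127 to 870.3 with a median of 282. The 4 tumors of mouse 3 were the 4 lowest of the 16, a split by animal that was noticed after the values were seen and not tested.

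Ttn, the giant spring of the sarcomere, read 499 in the heart metastasis, 253, 85.7 and 188 in the inguinal, subcutaneous and mouse 3 body wall metastases, 68.5 and 97.8 in liver, 105 and 146 in lymph node, 116 in pleura and 76.5 to 164 (median 99.9) in the primary tumors. The heart, inguinal and mouse 3 body wall metastases thus lay above the 12 liver, lymph node, pleural and primary tumors, and the log2 difference of the heart metastasis was 2.21 ± 0.59 (adjusted p = 0.244). A second Ttn probe set gave the same order, at 367 in the heart, 180.0 in the inguinal and 96.6 in the mouse 3 body wall metastasis against at most 78.7 in those 12 tumors (log2 difference 2.75 ± 0.66, adjusted p = 0.208). For myoglobin and the cardiac calcium release channel the probe sets differed. Mb, myoglobin, read 27.7 in the heart metastasis at its brightest probe set, among 26.9 to 45.1 elsewhere, whereas its other probe set read 84.3 in the heart metastasis and at most 6.38 elsewhere and was called (log2 difference 5.51 ± 0.45, adjusted p = 0.00612). Likewise Ryr2, the cardiac calcium release channel, read 56.6 among 29.8 to 72.7 at the brightest probe set and 91.8 against at most 21.1 at the dimmer one (adjusted p = 0.251).

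The second question was whether metastases of the body wall, which contains skeletal muscle, carried skeletal genes. Across all 3 against the 5 metastases of liver, lymph node and pleura, 0 of the 37 genes passed in limma, and 0 of the 22626 probe sets did (0%), while 1685 probe sets had an unadjusted p under 0.05 in either direction. At an unadjusted p under 0.05, 8 of the 37 genes were higher, against 4.8% of all probe sets. These were 5 skeletal genes (Acta1, Tnnc2, Tnnt3, Myh2 and Mylpf), the cardiac genes Tnni3 and Ankrd1, and the shared gene Ckm. Tnni3 had the smallest of these p values (0.00701 in limma), but it read at most 11.1 in the body wall metastases. The median log2 difference was 1.49 over the 14 skeletal genes, 0.07 over the cardiac genes and 0.02 over the shared genes, beside 0.06 over all genes. The 3 tumors of this group did not act alike. The summed intensity of the 14 skeletal genes was 2016 in the inguinal metastasis and 898 in the mouse 3 body wall metastasis, but 300.3 in the subcutaneous metastasis of mouse 1. The same sum lay between 287 and 307 in the 5 other metastases, between 273 and 331 in the primary tumors, and at 412 in the heart metastasis. Acta1 alone made up 167 of that heart sum. The fitted differences moved with single tumors. Without the inguinal metastasis the log2 difference was 1.36 for Myh4, 1.04 for Mylpf, 1.32 for Tnnc2, 1.18 for Tnnt3, 0.57 for Atp2a1, 0.43 for Actn3 and 0.56 for Ckm. Without the subcutaneous metastasis it was 3.71 for Myh4, 3.06 for Mylpf, 3.10 for Tnnc2, 2.53 for Tnnt3, 2.55 for Atp2a1, 2.38 for Actn3 and 1.43 for Ckm, and the values over all 3 tumors stand with each gene. With a floor at the 25th percentile the mean over the 3 tumors of the skeletal median against the own primary tumor was 0.53 in place of 1.40.

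**Figure D3:**
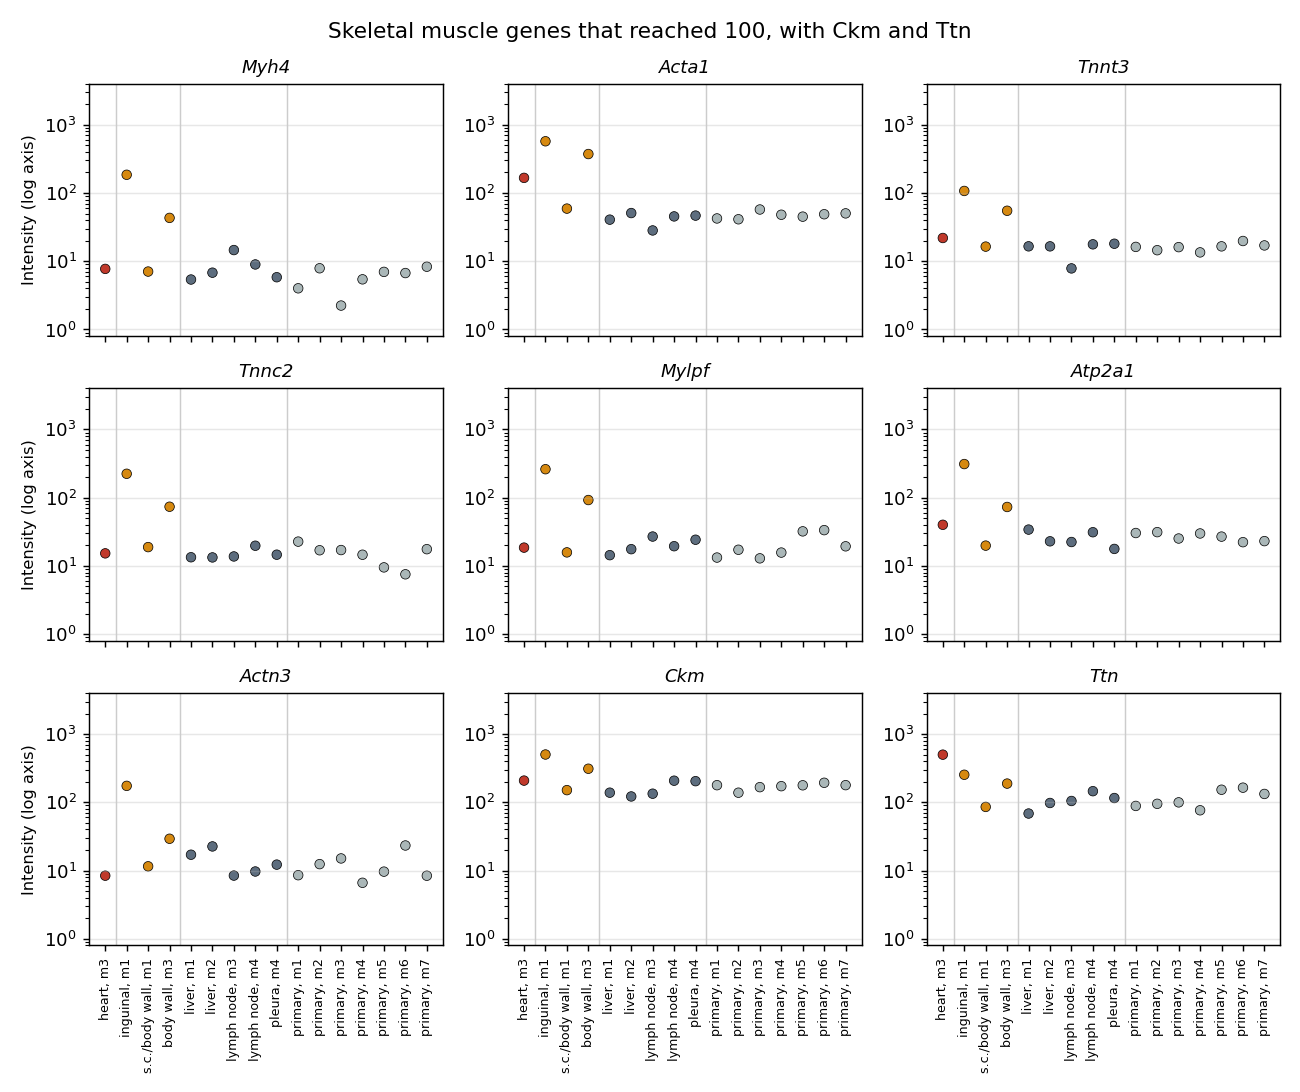
Intensity (log axis, values under 1 drawn at 1) of the 7 skeletal genes that reached 100 in a tumor, with the shared genes Ckm and Ttn, in each of the 16 tumors, coloured red for heart, orange for body wall, dark grey for the other metastases and light grey for primary tumors. The 7 skeletal genes are shown because they reached 100, which they did in body wall tumors or, for Acta1, in the heart metastasis as well, so their agreement is no count over the list; of all 14 skeletal genes, the inguinal metastasis exceeded the 12 liver, lymph node, pleural and primary tumors for 9 and the mouse 3 body wall metastasis for 8.

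Acta1, the skeletal alpha-actin, read 572 in the inguinal metastasis, 59.0 in the subcutaneous metastasis and 372 in the mouse 3 body wall metastasis. It read 40.7 and 50.8 in the liver metastases of mice 1 and 2, 28.3 and 45.4 in the lymph node metastases of mice 3 and 4, 46.6 in the pleura, and 41.2 to 57.3 (median 48.0) in the primary tumors. The heart metastasis read 167, above the same 12 tumors. Acta1 alone of the 37 genes had all 3 body wall metastases above the 5 other metastases, against 2.71% of all probe sets. Its log2 difference was 2.67 ± 0.76 (adjusted p = 0.666), and its exact two-sided permutation p over the 8 tumors was 0.0357, the smallest that 56 arrangements can give. The permutation left the mouse out, although mice 1 and 3 gave tumors to both groups.

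The fast thin filament genes followed. Tnnc2, the fast troponin C, read 224 in the inguinal, 18.9 in the subcutaneous and 73.6 in the mouse 3 body wall metastasis, and 15.3 in the heart metastasis. The other metastases read 13.4 and 13.3 in liver, 13.8 and 19.8 in lymph node and 14.6 in pleura, and the primary tumors 7.54 to 22.7 (median 17.0). The log2 difference was 2.17 ± 0.79 (adjusted p = 0.666). Tnnt3, the fast troponin T, read 107, 16.4 and 54.9 in the same 3 body wall metastases, 21.9 in the heart metastasis, 16.5 and 16.5 in liver, 7.85 and 17.7 in lymph node, 18.0 in pleura and 13.5 to 19.8 (median 16.2) in the primary tumors. The inguinal and mouse 3 body wall tumors thus lay above the 12 liver, lymph node, pleural and primary tumors, and the subcutaneous tumor lay among them. Tnni2, the fast troponin I, was flat at its brightest probe set (6.57 to 24.1 over the 16 tumors), while another read 61.3 in the inguinal metastasis, 7.74 in the mouse 3 body wall metastasis and at most 7.07 elsewhere.

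The fast myosin genes gave 2 different orders. Myh4, the heavy chain of type 2B fibers, read 185 in the inguinal, 7.06 in the subcutaneous and 43.2 in the mouse 3 body wall metastasis, 7.73 in the heart metastasis, 5.40 and 6.80 in liver, 14.6 and 8.97 in lymph node, 5.83 in pleura and 2.24 to 8.31 (median 6.71) in the primary tumors. Its log2 difference was 2.54 ± 1.12 (adjusted p = 0.669). Myh1, the heavy chain of type 2X fibers, read 26.2 to 68.8 at its brightest probe set. Myh1 was lowest there in the inguinal (26.2) and mouse 3 body wall (30.0) metastases. Its 2 dimmer probe sets, however, read 193 and 152 in the mouse 3 body wall metastasis, 18.8 and 14.3 in the inguinal metastasis, and at most 29.1 and 19.2 in every other tumor. The inguinal tumor was therefore the higher for Myh4 and the mouse 3 tumor for these Myh1 probe sets. Myosin heavy chain genes are near-identical over long stretches, and cross-hybridization between them was not tested. Mylpf, the fast regulatory light chain, read 261, 15.8 and 92.3 in the inguinal, subcutaneous and mouse 3 body wall metastases, 18.5 in the heart metastasis, 14.4 and 17.6 in liver, 26.9 and 19.4 in lymph node, 24.2 in pleura and 12.9 to 33.4 (median 17.2) in the primary tumors. Its log2 difference was 2.04 ± 0.88 (adjusted p = 0.669). Myl1, the fast essential light chain, read 33.7, 3.20 and 18.0 in the same 3 tumors against at most 12.4 elsewhere.

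Atp2a1, the fast calcium pump SERCA1, read 311 in the inguinal, 19.8 in the subcutaneous and 73.0 in the mouse 3 body wall metastasis, 40.0 in the heart metastasis, 34.1 and 22.9 in liver, 22.4 and 31.2 in lymph node, 17.7 in pleura and 22.3 to 31.3 (median 26.9) in the primary tumors. Actn3, the alpha-actinin of fast fibers, read 174, 11.6 and 29.3 in the same body wall metastases, 8.42 in the heart metastasis, 17.1 and 22.6 in liver, 8.45 and 9.70 in lymph node, 12.2 in pleura and 6.62 to 23.3 (median 9.65) in the primary tumors. Ckm, the muscle creatine kinase shared with heart, read 502, 151 and 311, with 208 in the heart metastasis, 138 and 122 in liver, 134 and 207 in lymph node, 204 in pleura and 138 to 193 (median 178) in the primary tumors. These 3 genes repeated the order of inguinal, then mouse 3 body wall, with the subcutaneous tumor at or near the level of the others. The log2 differences were 1.53 ± 0.87 for Atp2a1 (adjusted p = 0.704), 1.46 ± 0.90 for Actn3 (adjusted p = 0.720) and 0.97 ± 0.40 for Ckm (adjusted p = 0.668). Tnni1 and Tnnt1, the slow troponins, stayed under the 25th percentile of all intensities in all 16 tumors (highest 6.44 and 19.7), although the 19.7 of Tnnt1 was in the inguinal metastasis. Myh2 (25.8 to 45.5), the heavy chain of type 2A fibers, and Casq1 (22.9 to 67.3), the calcium store protein of fast muscle, were not highest in any body wall tumor.

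Compared directly, the heart metastasis was higher than the body wall metastases for 7 of the 37 genes and lower for 0, against 0.0884% of all probe sets called higher. The 7 were Actc1, Actn2, Ankrd1, Myl2, Myl3, Pln and Tnnc1, all among the 9 called against the other metastases, and both comparisons share the heart metastasis. The log2 differences ran from 2.10 ± 0.23 for Ankrd1 (adjusted p = 0.0278) to 4.63 ± 0.40 for Actc1 (adjusted p = 0.00889). None of the 14 skeletal genes passed in the other direction, where 12 of 14 had a negative difference and the median was −0.73, beside −0.05 over all genes. The count was 0 without the body wall metastasis of mouse 3 and without all tumors of mouse 1 or of mouse 4. It was 2 without the lymph node metastasis of mouse 4 or the pleural metastasis, 3 without the subcutaneous or the liver metastasis of mouse 1, 4 without the inguinal metastasis or the lymph node metastasis of mouse 3, and 6 without the liver metastasis of mouse 2.

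Against its own primary tumor, the heart metastasis had a median log2 difference of 1.61 over the cardiac genes, 2.32 over the shared genes and −0.04 over the skeletal genes, beside −0.04 over all genes. The inguinal metastasis had medians of −0.01, 0.01 and 2.84 for the same lists, and the mouse 3 body wall metastasis 0.42, 0.30 and 1.25. For the subcutaneous metastasis of mouse 1 they were −0.08, −0.20 and 0.10. In the 5 other metastases every list median lay between −0.29 and 0.31.

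**Figure D4:**
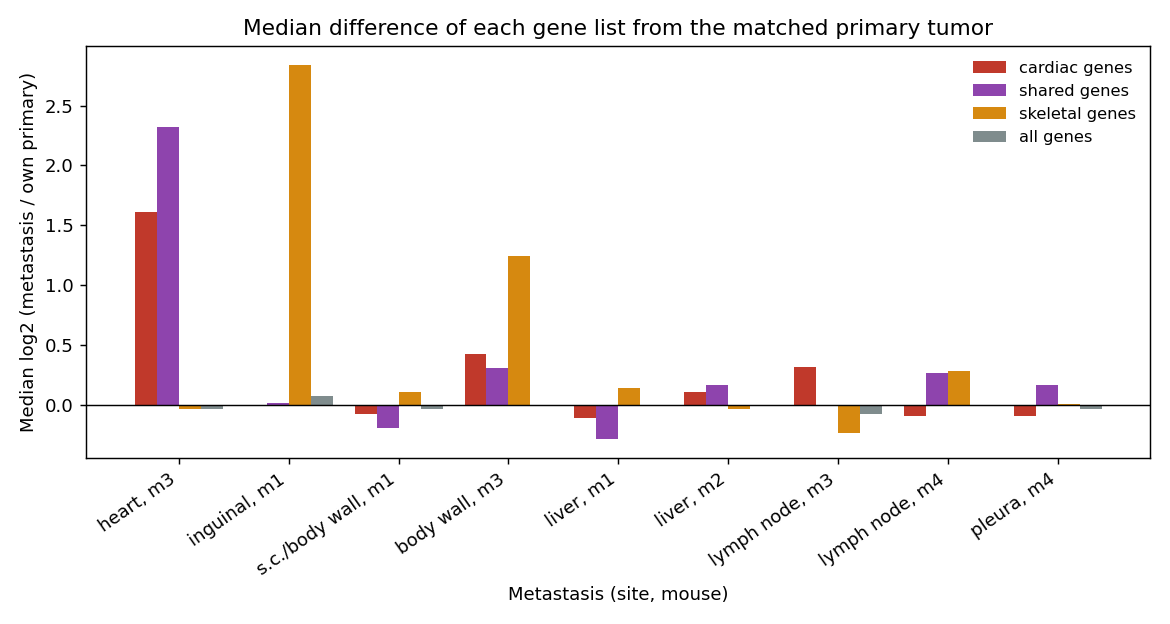
Median log2 ratio of each metastasis to the primary tumor of its own mouse over the cardiac, shared and skeletal genes and over all genes. The cardiac and shared bars of the heart metastasis reach 1.61 and 2.32, and the skeletal bars reach 2.84 in the inguinal and 1.25 in the mouse 3 body wall metastasis.

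With all 9 metastases set against the 4 matched primary tumors, the comparison the study was built on, 0 of the 37 genes passed in limma, against 0.354% of all probe sets called in either direction. At an unadjusted p under 0.05, 2 of the 37 genes were higher, against 4.28% of all probe sets. They were Casq1 (log2 difference 0.47 ± 0.13, adjusted p = 0.205) and Ldb3 (0.48 ± 0.14, adjusted p = 0.215). At a Benjamini-Hochberg adjusted p under 0.05, the methods' paired t-test called the same 2 genes. It called 3.91% of all probe sets in either direction, so both shares lie near their background. The study itself used an unadjusted p in this test, at another threshold. The test also counts the 9 ratios as separate, although they share 4 primary tumors. The genes that stood out by site did not pass here: the difference was 0.54 ± 0.78 for Actc1 (adjusted p = 0.853) and 0.73 ± 0.79 for Acta1 (adjusted p = 0.793).

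Other muscle genes, listed by role, were read in the same comparisons. In the heart comparison the median log2 difference was 1.23 over the muscle energy genes and 0.53 over the further sarcomere and cytoskeleton genes. It was 0.07 over the excitation and calcium genes, −0.01 over the cardiac and −0.03 over the myogenic regulators, beside 0.00 over all genes. In the body wall comparison these medians were 0.24, 0.21, 0.20, −0.08 and 0.21 in the same order, beside 0.06 over all genes. Of 19 further sarcomere and cytoskeleton genes with a probe set, 1 passed in the heart comparison at its brightest probe set, Xirp1 (log2 difference 2.84 ± 0.28, adjusted p = 0.0146), a repeat protein of the intercalated disc, although its intensity was 6.82 there, 1.61 in the inguinal metastasis and at the floor in the other tumors. Hspb7, a small heat shock protein of muscle, and Des, the muscle intermediate filament, passed at probe sets other than the brightest. For Hspb7 both of these gave calls (log2 differences 7.13 ± 0.47 and 3.36 ± 0.36, adjusted p = 0.00221 and 0.0180), and for Des one did (2.47 ± 0.24, adjusted p = 0.0118). In the body wall comparison the largest differences of that list were in Myom2 (1.39), Myh3 (0.97) and Myom1 (0.95), and none passed. Of 13 excitation and calcium genes, none passed in either comparison, with the largest heart differences in Casq2 (3.73), Cacna1s (1.70) and Cacng1 (−1.12) and the largest body wall differences in Cacna1s (1.42), Sgca (−1.08) and Ryr1 (0.88). Of 11 muscle energy genes, none passed, with Ckmt2 (4.93), Cox6a2 (2.87) and Cox8b (2.71) largest in the heart comparison and Pygm (1.00), Cox7a1 (0.68) and Adssl1 (0.41) in the body wall comparison. None of 9 cardiac regulators passed, and Nkx2-5 (0.66), Hand2 (−0.50) and Gata4 (0.32) had the largest heart differences and Nkx2-5 (−1.33), Gata6 (−0.39) and Gata4 (0.31) the largest body wall differences. None of 7 myogenic regulators passed either, with Myf5 (−1.84), Myf6 (1.84) and Myod1 (−0.85) largest in the heart comparison and Myf5 (−0.90), Myog (0.61) and Myf6 (0.36) in the body wall comparison.

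Markers of other tissues varied among the same tumors. The summed intensity of 9 adipocyte genes was 4366 in the subcutaneous metastasis, which lacked the skeletal pattern, 2522 in the inguinal metastasis and 403 in the mouse 3 body wall metastasis, with 1160 in the heart metastasis and 336 to 2976 in the 5 others. That of 10 smooth muscle genes was 1696 in the heart, 1933 in the inguinal, 1772 in the subcutaneous and 3941 in the mouse 3 body wall metastasis, against 1357 to 3013 in the others and 1859 to 3195 in the primary tumors. That of 12 lung adenocarcinoma genes was 10938 in the heart, 18564 in the inguinal, 19703 in the subcutaneous and 13158 in the mouse 3 body wall metastasis. It was 10378 to 31771 in the 5 others and 28690 to 50087 in the primary tumors, lowest in that of mouse 3. Of the 9 metastases, the 3 of mouse 3 thus had the lowest sums, with 10378 in its lymph node metastasis. The list holds surfactant genes such as Sftpb and Sftpa1 beside Epcam and Cdh1, and the share of tumor cells was not measured. The part of these tissues in the muscle differences was not tested.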

How the data were processed

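RNA of 16 tumors was measured on Affymetrix Mouse 430A 2.0 arrays. The authors used Microarray Suite and dChip (invariant set normalization, then a model of perfect match minus mismatch signal) to make the deposited intensity values, which are linear. Array medians lay between 75.0 and 85.5. Depth does not apply to arrays, and their number limits the precision. Detection calls were not used here.

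Control probe sets (64) were left out, intensities under 1 were set to 1, and log2 values were taken. Contrasts used the 13 tumors of mice 1 to 4 and limma 3.58.1 under R 4.3.3. Each mouse entered as a fixed block. Adjusted p is Benjamini-Hochberg across the 22626 probe sets tested, with a threshold of 0.05. The scripts were tested on simulated data. Pairing comes from the animal: deviations of a metastasis correlated with those of its own primary tumor at −0.002 to 0.401, highest of the 4 for 6 of 9 metastases. Metastases of 1 mouse count as separate samples of the site difference.

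Gene names come from the platform annotation (20380 probe sets with 1 symbol, 691 with several, 1555 with none). A gene is given in every metastasis, with the range and median of the primary tumors, where it reached 100 in at least 1 tumor, and of each other list the genes past the threshold are named or, with none, the 3 of largest difference. The genes and lists were chosen with earlier results of these data known. Alternatives were a floor at the 10th or 25th percentile (5.54, 24.3), quantile normalization, median centring, dim probe sets left out, a variance trend, no block, a random block over 16 tumors, metastases alone, any probe set per gene, exact permutation (SciPy 1.17.1), 1 mean ratio per mouse, the methods' t-test, and each metastasis or mouse left out.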

Additional observations from a re-analysis of the deposited data

Results flagged for a closer look

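Dixon's test was run on log2 values of all 37 genes, with no filter on level, in the 9 metastases, the 7 primary tumors and the 5 liver, lymph node and pleural metastases (111 groups). It set 21 values apart, where chance sets apart about 1 group in 20, but the genes share the same tumors and the groups overlap, so the values are not independent. Each value is the gap to the nearest tumor as a share of the range. Among the 9 metastases the heart metastasis stood apart for Actc1 (0.842), Pln (0.834), Actn2 (0.797), Tnnc1 (0.774), Nppb (0.773), Myl3 (0.762), Mybpc3 (0.749), Myl2 (0.732), Ankrd1 (0.686), Nppa (0.625) and Csrp3 (0.616). The inguinal metastasis stood apart for Actn3 (0.589) and Atp2a1 (0.506), and the lymph node metastasis of mouse 4 was low for Myh6 (0.617). On the low side, the 5 other metastases gave the pleural metastasis for Mybpc3 (0.741) and the lymph node metastasis of mouse 3 for Tnnt3 (0.894). On the high side they gave the liver metastasis of mouse 2 for Actn2 (0.731), the lymph node metastasis of mouse 4 for Tnnc2 (0.766) and that of mouse 3 for Myl1 (0.732). Among the primary tumors, that of mouse 5 was low for Myl2 (0.636) and that of mouse 4 high for Myh2 (0.575).

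The heart metastasis also differed from the body wall metastases in their common comparison with the other metastases, by the contrast between these sites in limma. Its log2 differences were 4.63 for Actc1, 3.33 for Tnnc1, 3.07 for Myl2, 3.05 for Pln, 2.89 for Actn2, 2.57 for Myl3 and 2.10 for Ankrd1. These rest on 1 heart metastasis.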

How the results depend on the processing

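The count of genes called in the heart comparison was 9 and lay between 7 and 12 under the other floors, normalizations, variance models and blocks, and at 10 with any probe set per gene. With dim probe sets left out it was 5, because 4 of the 9 genes were then not tested and the other 5 were called again. Leaving out 1 metastasis or 1 mouse gave 0 to 7. The comparison of heart with body wall metastases gave 7 genes, 12 with a floor at the 25th percentile, 0 to 6 with 1 metastasis or mouse left out, and 5 to 10 otherwise. Leaving out mouse 3 or the heart metastasis leaves no estimate. Over all probe sets, more were called higher in both comparisons with the floor at the 25th percentile. Fewer were called higher in every fit that left out a metastasis or a mouse. The cause was not tested for the counts that moved, except for the filter. All genes called in either comparison were higher in the heart metastasis under every setting that tested them. The calls against the other metastases held less often. Of 19 other settings they held in 5 for Tnni3, 6 for Myl3, 10 for Actn2 and 14 for Myl2. Of 20 they held in 11 for Nppa, 16 for Tnnc1, 17 for Pln, and 18 for Actc1 and for Ankrd1. The floor at the 25th percentile lay above 15 of the 16 readings of Tnni3 and of Myl3. It lay above 14 of those of Actn2 and of Myl2. Almost no spread was left under that floor, so a call there adds little for these 4 genes.

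The body wall comparison called 0 genes under each limma setting, and 1 (Acta1) by the exact permutation test, which was not adjusted and is 1 of 37 genes beside 2.71% of all probe sets with all 3 body wall metastases above the 5 others. The comparison of metastases with primary tumors called 0 under each limma setting and 2 by the methods' t-test at the same adjusted threshold. With no block for the mouse, which pairs the tumors, the 4 counts in the order of heart, heart against body wall, body wall and all metastases were 9, 9, 0 and 0, so the block moved none of these counts by over 1.5 times. The median log2 difference of the heart metastasis from its primary tumor moved from 1.61 to 1.37 (cardiac) and from 2.32 to 1.48 (shared) with a floor at the 25th percentile, and to 1.99 and 2.60 with the median of all probe sets of a gene. The mean skeletal median of the body wall metastases moved from 1.40 to 0.53 with the floor at the 25th percentile, within the SD of 1.38 among the 3 tumors.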

Other observations

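Lists of genes of other tissues were also compared, and none of their genes passed in limma at the brightest probe set in the heart or body wall comparison. The summed intensity of 9 hepatocyte genes was 675 in the heart metastasis, 7775, 6145 and 817 in the inguinal, subcutaneous and mouse 3 body wall metastases, and 892 to 9187 in the 5 others. The primary tumors summed to 719.9 to 1581, so the inguinal and subcutaneous metastases of mouse 1 lay above them. Over 9 B and T cell genes the sum was 532 in the heart metastasis, 547, 547 and 522 in the inguinal, subcutaneous and mouse 3 body wall metastases, and 506 to 679.9 in the 5 others. For 9 keratinocyte genes it was 232 in the heart metastasis, 243, 266 and 247 in the inguinal, subcutaneous and mouse 3 body wall metastases, and 224 to 287 in the 5 others. For 4 mesothelium genes it was 1486 in the heart metastasis, 2004, 1038 and 2553 in the inguinal, subcutaneous and mouse 3 body wall metastases, and 498 to 1922 in the 5 others.

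By the same rule for naming genes, the largest log2 differences of the heart metastasis were in Cd3d (−2.84), Cd2 (−0.97) and Cd3g (0.82) of the lymphocyte genes, Car3 (−1.96), Lpl (1.89) and Adipoq (−1.72) of the adipocyte genes, and Ttr (−1.91), Apoa1 (−1.5) and Ahsg (−1.42) of the hepatocyte genes. They were in Epcam (−2.79), Nkx2-1 (−2.77) and Sftpb (−1.78) of the lung adenocarcinoma genes, Mylk (−1.10), Tagln (−0.92) and Cnn1 (0.85) of the smooth muscle genes, Flg (−1.68), Krt5 (1.43) and Krt15 (−1.30) of the keratinocyte genes, and Wt1 (−1.52), Krt19 (−1.25) and Upk3b (−0.91) of the mesothelial genes. In the body wall comparison they were in Cd3d (−2.30), Cd3e (−2.0) and Cd2 (−0.78), in Car3 (1.57), Lep (1.20) and Cidec (0.69), and in Fgb (−2.09), Ahsg (−1.51) and Apoa2 (−1.17) of the same first 3 lists. For the other 4 lists, in the order above, they were in Cdh1 (0.94), Sftpa1 (−0.91) and Nkx2-1 (0.58), in Cnn1 (−0.88), Myh11 (0.88) and Mylk (0.62), in Flg (−1.07), Krt5 (0.63) and Lor (0.42), and in Wt1 (−1.21), Krt19 (0.15) and Upk3b (−0.12).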
